A study of Mus musculus with 15 samples.

Results

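The 8 genes described here encode cadherins, a protocadherin and catenins of cell junctions: Cdh1, Cdh2, Cdh17, Pcdh7, Ctnna1, Ctnnb1, Ctnnd1 and Jup, out of 38924 genes counted. They were taken by name, and the family was chosen by the levels of Cdh2, Cdh17 and Pcdh7, which differed strongly by organ or lineage in these same libraries. The values of those 3 genes therefore carry no test here. For the other 5 genes the differences between subtypes were tested.

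The study sorted mononuclear phagocytes from naïve female C57BL/6 mice, 6 to 8 weeks old by the labels and 6 to 10 by the methods of the study, and sequenced poly-A RNA from 15 libraries of 5 mouse subtypes analysed here, with 3 libraries each. From the spleen came CD8+ dendritic cells (DCs) of the DC1 lineage (CD8+, CD11c+, MHCII+), CD4+ DCs of the DC2 lineage (CD4+, CD11c+, MHCII+) and Ly6C+ monocytes (Ly6C+, CD11b+). From the lung-draining, mediastinal lymph nodes (LNs) came CD103+ DC1 (CD103+, CD11c+, MHCII+) and CD11b+ DC2 (CD11b+, CD11c+, MHCII+), both gated on high MHC class II as migratory cells. Each library pooled cells of 5 mice, and different cohorts supplied LNs and spleens, so organ and cohort cannot be told apart and p-values measure the spread between pools. Tissue was digested with collagenase D, and cells were enriched on magnetic beads against CD11c for DCs and CD11b for monocytes. Each monocyte library was sequenced in 2 runs and each DC library in 1. In comparisons of monocytes with DCs, beads and runs thus cannot be told apart from subtype. The sort kept live, single CD45+ cells without the lineage markers CD3, B220, Ly6G and NK1.1. That gate was meant to remove T, B and NK cells, neutrophils and cells outside the blood lineages. The libraries held between 4531243 and 10233914 counts on genes. Levels are given in CPM (counts of a gene scaled to a library size of 1000000) or in TPM (likewise scaled, but after division by gene length). Errors are SDs with n = 3 libraries after levels and TPM ratios, and standard errors of the fit after log2 fold changes. Ratios for low counts divide levels pooled over the libraries of each subtype, with intervals and floors that cover counting error only.

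Classical cadherins bind their like on a neighbouring cell and hold p120 catenin (Ctnnd1) and either beta-catenin (Ctnnb1) or gamma-catenin, also called plakoglobin (Jup), on their cytoplasmic tails. Alpha-catenin (Ctnna1) joins that complex to actin. Beta-catenin that is free of cadherin can also enter the nucleus as a coactivator of TCF and LEF factors in Wnt signalling, and E-cadherin (Cdh1) with beta-catenin has been studied in DCs for its role in maturation and tolerance.

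The label of each subtype was set against marker genes, and most but not all followed the labels. The summed level of Ccr7, Fscn1 and Cacnb3, genes of migratory DCs, was 12479 CPM in CD103+ DCs of the LN and 6381 CPM in its CD11b+ DCs, against 183.3 and 304.3 CPM in splenic CD8+ and CD4+ DCs and 8.79 CPM in monocytes. The sum of 6 DC1 genes (Xcr1, Clec9a, Irf8, Batf3 and the sort genes Cd8a and Itgae) was 4126 and 831.3 CPM in splenic CD8+ and LN CD103+ DCs and 109.1 and 337.7 CPM in their DC2, but 549.6 CPM in monocytes. Irf8 made most of it there, at 451.1 to 562 CPM, a range that overlapped the 533.8 to 764.4 CPM of LN CD103+ DCs. Xcr1 averaged 715 ± 202 CPM in CD8+ DCs of the spleen and 55.1 ± 36.0 CPM in LN CD103+ DCs (96.75 CPM in replicate 1), and at most 4.53 CPM in the other subtypes, while Ly6c2 averaged 824.5 ± 167 CPM in monocytes and at most 14.98 CPM in the DCs. The 5 monocyte genes (Ly6c2, Ccr2, Csf1r, Itgam and C5ar1) summed to 5806 CPM in monocytes. In DC2 that sum, led by Csf1r, was 880.4 CPM in spleen and 609.4 CPM in LN, against 173.9 and 29.7 CPM in DC1. Among 4 DC genes, Flt3 averaged 1099 and 971.9 CPM in splenic CD8+ and CD4+ DCs, 1361 and 885.7 CPM in LN CD103+ and CD11b+ DCs and 74.15 CPM in monocytes, and Zbtb46 339, 441.9, 427.6, 375.5 and 6.84 CPM in the same order. Itgax averaged 540.3, 852.3, 101.3, 291.3 and 61.4 CPM and H2-Ab1, a gene of MHC class II, 19118, 15888, 1764, 7366 and 1456 CPM, with 3199 CPM in replicate 1 of LN CD103+ DCs. The gate on MHC class II was on surface protein. The sum of 4 DC2 genes (Sirpa, Irf4, Itgam and Cd4) was 2040 and 833.9 CPM in splenic CD4+ and LN CD11b+ DCs, against 105.1 and 59.8 CPM in their DC1, but was highest in monocytes, at 2440 CPM. Markers of other cells differed between the subtypes, despite the lineage gate. The 5 neutrophil markers, led by Ngp, summed to 112.6, 98.2 and 178.5 CPM in monocytes, with Ly6g at 0 in replicate 2, and to at most 0.801 CPM in a DC library. Red pulp macrophage markers, led by Hmox1, summed to 140.2 and 327.2 CPM in splenic CD8+ and CD4+ DCs, 24.97 and 88.6 CPM in LN CD103+ and CD11b+ DCs and 235.9 CPM in monocytes (373.5 CPM in replicate 2). In CPM, the sum of erythroid markers ran from 22.4 to 100.8 in CD8+ and from 22.99 to 177.6 in CD4+ DCs of the spleen, from 1.49 to 6.66 in CD103+ and from 9.78 to 41.01 in CD11b+ DCs of the LN, and from 3.29 to 4.72 in monocytes. All 5 T cell markers on the list (Cd3d, Cd3e, Cd3g, Lck and Cd2) had counts in every LN library, and their sum was 84.5, 89.3 and 113.7 CPM in CD103+ DCs of the LN and 59.2, 64.5 and 87.2 CPM in its CD11b+ DCs, led by Lck. In splenic DCs that sum lay between 0.809 and 5.85 CPM and in monocytes between 0.786 and 2.63 CPM. The 5 B cell markers summed to 217.9 CPM in replicate 1 of LN CD103+ DCs and to 15.3 and 20.03 CPM in its other replicates, against 43.9 to 78.4 CPM in LN CD11b+ DCs and 29.7 to 87.8 CPM in splenic DCs. Since these were bulk libraries, fewer cells of a type and less RNA per cell cannot be told apart.

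Among the cadherins, Cdh2 (N-cadherin) was an LN gene, Cdh17 (LI-cadherin, of intestinal epithelium) was a gene of splenic CD4+ DCs and Pcdh7 was a gene of LN CD103+ DCs, while Cdh1 was near the limit of detection in all 5 subtypes. The values of Cdh2, Cdh17 and Pcdh7 that follow are those that chose the family.

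**Figure D1:**
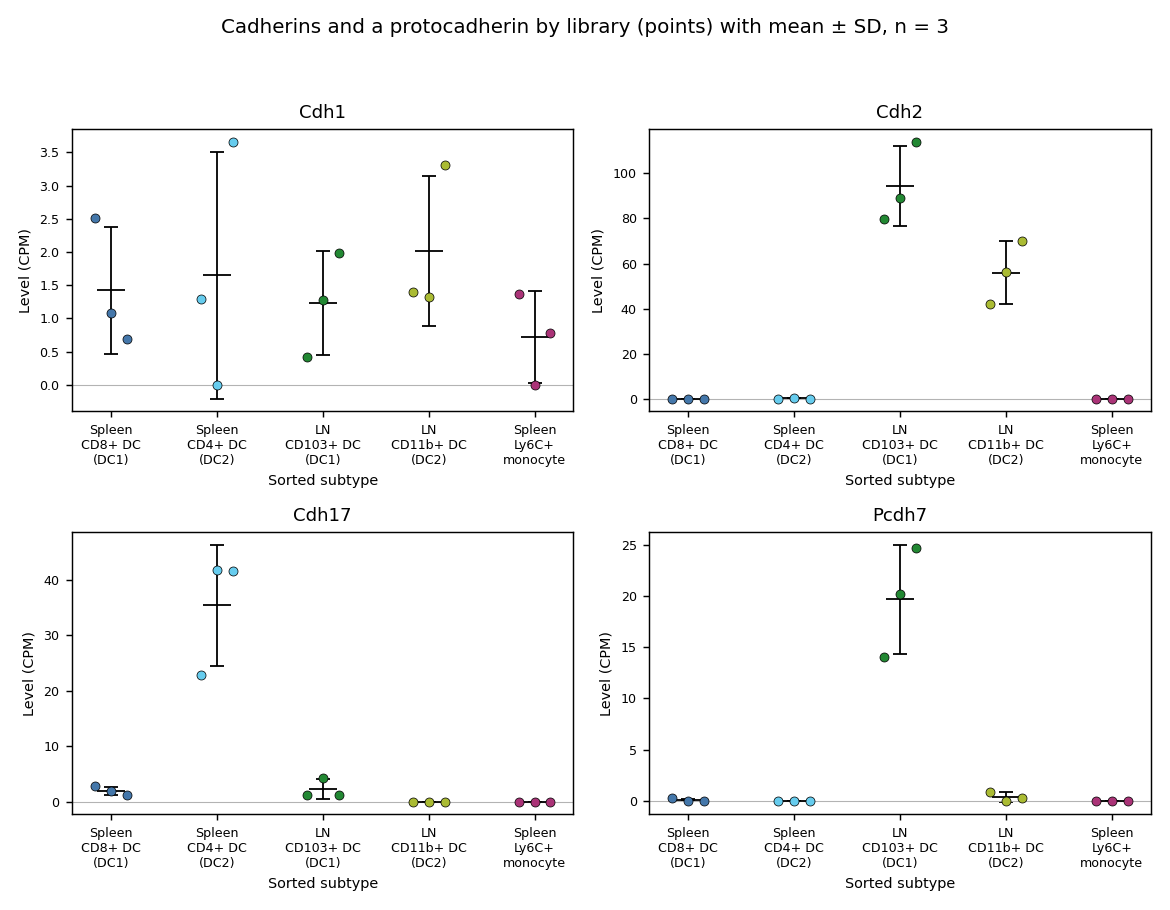
Level in CPM (vertical axis) of Cdh1, Cdh2, Cdh17 and Pcdh7 in the 15 libraries (points) by sorted subtype (horizontal axis), with mean and SD (bars, n = 3); each panel has its own scale. Cdh2 averaged 94.3 and 56.0 CPM in LN CD103+ and CD11b+ DCs, Cdh17 35.4 CPM in splenic CD4+ DCs and Pcdh7 19.7 CPM in LN CD103+ DCs, and no library exceeded 3.66 CPM of Cdh1.

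Cdh2 (ENSMUSG00000024304, mm10 chromosome 18, 16588877 to 16809246) stood at 79.7, 89.2 and 114 CPM in the LN CD103+ libraries and at 41.9, 56.1 and 70.0 CPM in the LN CD11b+ libraries. In the 9 splenic libraries a single count was found, in replicate 2 of CD4+ DCs, against 2024 and 1090 counts over the LN subtypes. All 6 LN libraries were thus far above all splenic ones, and within the LN the CD103+ libraries were all above the CD11b+ libraries. Against splenic CD8+ DCs, at 0 in all 3 libraries, the level in LN CD103+ DCs was at least 760.5-fold higher with the floor of 3 counts over the group (at least 500.9-fold without replicate 1 and 489.5-fold without replicate 3 of splenic CD8+ DCs). LN CD11b+ DCs were 1037-fold above splenic CD4+ DCs, with a 95% counting interval of 185.7 to 40982 that rests on the single count; the ratio was 627 without replicate 1 of splenic CD4+ DCs, and without replicate 2 it became a bound of at least 242.3-fold. Fibroblast markers, whose cells the CD45+ gate would remove, summed to 2.93, 7.72 and 5.63 CPM in CD103+ DCs of the LN and 7.63, 9.52 and 8.61 CPM in its CD11b+ DCs. These 7 genes, led by Col3a1 in CD103+ and Col1a2 in CD11b+ DCs with none of the 7 at 0 over either subtype, summed to between 0 and 2.51 CPM in splenic DCs and, nearly all from Pdgfrb, to between 4.32 and 7.57 CPM in monocytes. The fibroblast sums of the LN subtypes overlapped. The T cell marker sums, in spite of the CD3 gate, had the order of Cdh2, higher in CD103+ than in CD11b+ DCs on average and ranked by library as Cdh2 within each LN subtype. The part of these markers in the Cdh2 level was not tested.

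The genes whose pattern over the 15 libraries was most like that of Cdh2 were Ccl17, a chemokine of migratory DCs, Flrt3, a ligand of latrophilins, and Fah, an enzyme of tyrosine breakdown. Likeness was the root mean square difference of centred log2 CPM over 10246 genes that averaged 10 CPM or more in some subtype, and was 0.55 for Ccl17, 0.65 for Flrt3 and 0.75 for Fah, against 3.91 for the spread of Cdh2 itself. Flrt3, for instance, averaged 164.1 ± 24.7 CPM in CD103+ DCs of the LN, 118.4 ± 10.7 CPM in its CD11b+ DCs and at most 0.568 CPM in a splenic subtype.

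Cdh17 (ENSMUSG00000028217, chromosome 4, 11758147 to 11817895) had 22.8, 41.7 and 41.6 CPM in splenic CD4+ DCs. It stood at 2.75, 1.89 and 1.14 CPM in CD8+ DCs of the spleen and at 1.25, 4.33 and 1.16 CPM in LN CD103+ DCs, and no count of it was found in the 3 LN CD11b+ or the 3 monocyte libraries. The order of levels was therefore splenic CD4+ DCs first, then LN CD103+ and splenic CD8+ DCs, whose libraries overlapped, then the 2 subtypes at 0. Splenic CD4+ DCs were 17.9-fold above splenic CD8+ DCs in pooled level (counting interval 13.3 to 24.5) and 14.04-fold above LN CD103+ DCs (10.6 to 18.95), or 28.2-fold without replicate 2 of LN CD103+ DCs. Against LN CD11b+ DCs, the DC2 of the other organ, they were at least 235.5-fold higher, or at least 129.4-fold without replicate 1 of the LN CD11b+ DCs. The bound against monocytes was at least 262.1-fold, or 144.7-fold without monocyte replicate 2. Cdh17 thus ran opposite to Cdh2 in DC2, high in spleen and at 0 in LN. Its nearest genes by pattern were Slc45a3 (1.03), Ncald (1.36) and Tspan2 (1.36), against 2.60 for the spread of Cdh17. Tspan2, a tetraspanin, averaged 113.7 ± 19.7 CPM in splenic CD4+ DCs and 24.3 ± 7.74 CPM in splenic CD8+ DCs, so the likeness to Cdh17 was looser than that between Cdh2 and its neighbours.

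Pcdh7 (ENSMUSG00000029108, chromosome 5, 57718021 to 58129351), a protocadherin that lacks the catenin-binding tail of classical cadherins, stood at 14.1, 20.2 and 24.7 CPM in LN CD103+ DCs. LN CD11b+ DCs had 0.860, 0 and 0.221 CPM and splenic CD8+ DCs 0.239, 0 and 0 CPM, while all libraries of splenic CD4+ DCs and of monocytes were at 0. All LN CD103+ libraries were above all others, and the LN CD11b+ and splenic CD8+ libraries overlapped. LN CD11b+ DCs, at a mean of 0.360 CPM, were above the floor of 0.145 CPM that 3 counts over the group make, and splenic CD8+ DCs, with 2 counts, were not. The pooled level in LN CD103+ DCs was 44.6-fold that in LN CD11b+ DCs (counting interval 23.3 to 98.3), where 8 of the 9 counts came from replicate 1, without which the ratio was 220.7. It was 238.4-fold that in splenic CD8+ DCs, with 2 counts and an interval of 65.6 to 1975 (153.5-fold without replicate 3 of those DCs and at least 104.7-fold without replicate 1), at least 127.3-fold higher than in splenic CD4+ DCs (at least 76.99-fold without replicate 1) and at least 149-fold higher than in monocytes (at least 82.3-fold without replicate 2). Cnga2 (0.32), Cacng6 (0.59) and Emp2 (0.77) had the most similar patterns, against 2.4 for Pcdh7 itself. Cnga2, a cyclic nucleotide-gated channel subunit, averaged 23.4 ± 9.35 CPM in CD103+ DCs of the LN and 0.253 ± 0.270 CPM in its CD11b+ DCs, and had no count in the 9 splenic libraries.

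Epithelial markers were also seen in LN CD103+ DCs: 8 of 9 had counts, with Epcam leading at 9.64 CPM and Cldn4 at 0, and the sum was 21.6, 13.9 and 15.9 CPM, against 1.10 to 4.39 CPM in LN CD11b+ DCs, 2.86 to 10.4 CPM in splenic DCs and at most 0.526 CPM in monocytes. The order of the LN CD103+ libraries differed between these markers and Pcdh7, while the T cell marker sums had the order of Pcdh7. The CD45+ and lineage gates would remove epithelial and T cells, and the part of the markers in the Pcdh7 level was not tested.

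The promoter of Pcdh7 is shown as that of the only cadherin gene here with a promoter sequence given. Promoter sequences, the 250 bases before the start from RefSeq GRCm38.p6, were given for 4 of the 8 genes, namely Pcdh7, Ctnnb1, Ctnnd1 and Jup. They were searched on both strands for CTTTGA (TCF and LEF factors), GGG and TTTCC with 2 bases between (NF-kB), GGGCGG (GC box), CCAAT and CAGGTG (E-box), which 13.8%, 1.41%, 32.7%, 33.9% and 17.2% of 32851 such promoters held. Pcdh7, at chr5:57717831-57718080 on the plus strand, held 1 match, to CTTTGA (capitals), as a description of letters and not of binding.
Pcdh7: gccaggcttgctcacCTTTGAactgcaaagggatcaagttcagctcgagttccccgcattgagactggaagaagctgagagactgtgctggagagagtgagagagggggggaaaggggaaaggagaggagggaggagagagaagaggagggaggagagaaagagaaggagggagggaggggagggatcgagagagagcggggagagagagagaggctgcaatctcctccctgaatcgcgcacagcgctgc

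Cdh1 (ENSMUSG00000000303, chromosome 8, 106603351 to 106670246), the E-cadherin of epithelia and Langerhans cells, was low throughout. Its counts were 21, 8 and 6 in splenic CD8+ DCs, 10, 0 and 22 in splenic CD4+ DCs, 3, 11 and 12 in LN CD103+ DCs, 13, 9 and 15 in LN CD11b+ DCs and 7, 0 and 6 in monocytes. These made means from 2.01 ± 1.13 CPM in LN CD11b+ DCs to 0.721 ± 0.690 CPM in monocytes, and every pair of neighbours in the order LN CD11b+, splenic CD4+, splenic CD8+, LN CD103+ DCs, monocytes overlapped. In none of the 6 comparisons tested by edgeR's quasi-likelihood test with Benjamini-Hochberg adjustment was a difference in Cdh1 detectable at this depth (adjusted p from 0.322 to 0.910, standard errors of log2 fold changes between 0.97 and 1.41), and DESeq2 and limma also made no call.

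The catenins were present in every library. In TPM, Ctnna1 was the most abundant of the 8 genes in each of the 15 libraries, with means from 97.7 TPM in splenic CD4+ DCs to 395.8 TPM in LN CD103+ DCs, ahead of Ctnnb1 (33.6 to 54.6 TPM). Jup (9.81 to 51.7 TPM) and Ctnnd1 (4.04 to 23.7 TPM) were lower. For comparison, Cdh2 averaged 26.5 ± 5.48 TPM in LN CD103+ and 16.8 ± 4.89 TPM in LN CD11b+ DCs, and Cdh17 19.6 ± 6.15 TPM in splenic CD4+ DCs.

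**Figure D2:**
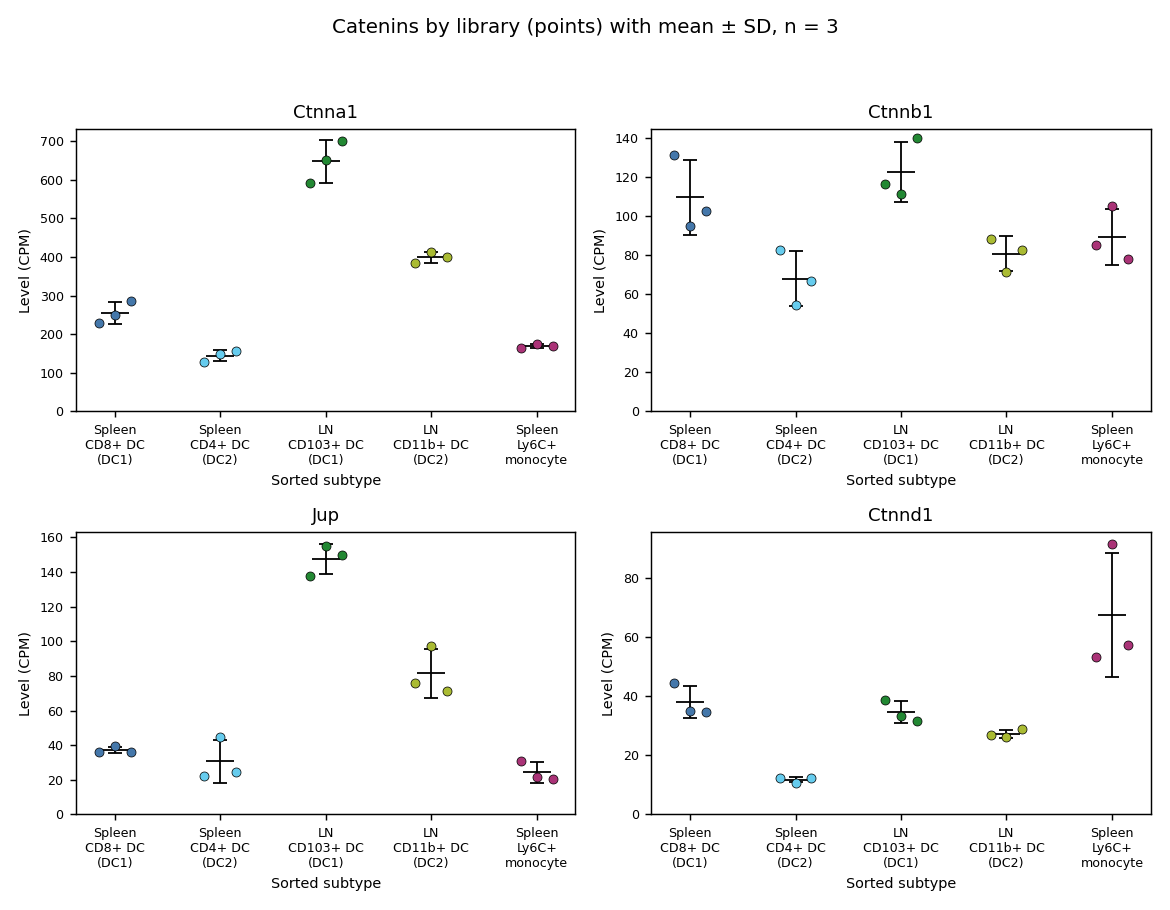
Level in CPM (vertical axis) of the catenin genes Ctnna1, Ctnnb1, Ctnnd1 and Jup in the 15 libraries (points) by sorted subtype (horizontal axis), with mean and SD (bars, n = 3). Ctnna1 and Jup were highest in LN CD103+ DCs (647 and 147.3 CPM), Ctnnd1 was highest in monocytes (67.6 CPM) and Ctnnb1 varied least, between 68.0 and 122.8 CPM.

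Counted over the 5 tested genes, 3 were higher in DC1 than in DC2 in spleen (Ctnna1, Ctnnb1 and Ctnnd1), where 13.1% of the 14456 genes tested were called higher. In LN, 2 were higher in DC1 (Ctnna1 and Jup), against 5.22% of all genes. Between organs, 2 were higher in LN in DC1 (Ctnna1 and Jup; 23.8% of all genes) and 3 in DC2 (Ctnna1, Ctnnd1 and Jup; 19.3%). The organ difference itself depended on lineage for 1 gene, Ctnnd1 (11.2% of all genes in either direction), which was also the 1 gene higher in monocytes than in the mean of splenic DCs (24.3%).

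Ctnna1 (ENSMUSG00000037815, chromosome 18, 35118888 to 35254773) stood at 590.2, 651.5 and 699.3 CPM in CD103+ DCs of the LN and at 385.1, 413.8 and 398.9 CPM in its CD11b+ DCs. Splenic CD8+ DCs had 229.5, 249.1 and 286.4 CPM, splenic CD4+ DCs 128.2, 149.5 and 156.6 CPM, and monocytes 163.9, 174.8 and 170.1 CPM. The 5 subtypes formed an order, LN CD103+, LN CD11b+, splenic CD8+, monocytes, splenic CD4+, in which no neighbours overlapped. By edgeR's quasi-likelihood test with Benjamini-Hochberg adjustment, LN exceeded spleen by a log2 fold change of 1.34 ± 0.16 in DC1 (adjusted p = 2.29e-06) and of 1.46 ± 0.17 in DC2 (adjusted p = 1.79e-06), and these organ differences were not shown to depend on lineage (difference -0.12, adjusted p = 0.802). DC1 exceeded DC2 by 0.82 ± 0.16 in spleen (adjusted p = 0.00108) and by 0.70 ± 0.16 in LN (adjusted p = 0.00673). Monocytes did not pass the threshold of 0.05 against splenic DCs (log2 fold change -0.18, adjusted p = 0.313). All 5 T cell markers had counts in the same LN libraries, and their part in the organ difference was not tested.

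Ctnnb1 (ENSMUSG00000006932, chromosome 9, 120929216 to 120960507), of whose exon bases 4.71% overlap Ulk4 so that reads there were counted for both, stood at 131.5, 94.9 and 103 CPM in CD8+ DCs of the spleen and at 82.7, 54.5 and 66.9 CPM in splenic CD4+ DCs. LN CD103+ DCs had 116.7, 111.3 and 140.4 CPM, LN CD11b+ DCs 88.5, 71.3 and 83.0 CPM, and monocytes 85.3, 105.4 and 77.9 CPM. All splenic CD8+ libraries lay above all splenic CD4+ libraries and all LN CD103+ libraries above all LN CD11b+ libraries, while neighbours in the order of means (LN CD103+, splenic CD8+, monocytes, LN CD11b+, splenic CD4+) overlapped. The excess of DC1 over DC2 passed the threshold in spleen (log2 fold change 0.69 ± 0.20, adjusted p = 0.0158) and missed it in LN (0.60 ± 0.20, adjusted p = 0.0574), and the 2 differences were not shown to differ (-0.09, adjusted p = 0.894). In LN the fit with the replicate number as a block gave 0.61 with adjusted p = 0.0317, DESeq2 gave 0.61 with adjusted p = 0.0225, and edgeR without splenic CD4+ replicate 1 or replicate 2 gave adjusted p = 0.0445 and 0.0352. The spleen call was lost with limma on log2(TPM + 1) (0.64, adjusted p = 0.0503), without splenic CD8+ replicate 1 (0.54, adjusted p = 0.0829) and without splenic CD4+ replicate 2 (0.55, adjusted p = 0.0714). No organ difference in Ctnnb1 was detected (0.16 in DC1 and 0.25 in DC2, adjusted p = 0.539 and 0.374), and monocytes differed from splenic DCs by 0.05 (adjusted p = 0.838).

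Jup (ENSMUSG00000001552, chromosome 11, 100368958 to 100397763), the homologue of beta-catenin that also serves desmosomes, was at 137.6, 154.7 and 149.6 CPM in CD103+ DCs of the LN and 76.0, 97.4 and 71.1 CPM in its CD11b+ DCs. Splenic CD8+ DCs had 36.2, 39.5 and 35.9 CPM, splenic CD4+ DCs 22.4, 45.0 and 24.8 CPM, and monocytes 31.0, 21.7 and 20.2 CPM. Every LN library was above every splenic one, LN CD103+ and CD11b+ DCs did not overlap, and the 3 splenic subtypes overlapped with their neighbours, splenic CD4+ replicate 2 being above all splenic CD8+ libraries. With the same edgeR test, LN exceeded spleen by 1.99 ± 0.25 on the log2 scale in DC1 (adjusted p = 2.60e-06) and by 1.41 ± 0.25 in DC2 (adjusted p = 1.89e-04), with no detected dependence on lineage (0.57, adjusted p = 0.314). The difference of DC1 and DC2 passed in LN (0.85 ± 0.24, adjusted p = 0.0221) but not in spleen (0.28, adjusted p = 0.425). In LN it was lost when LN CD103+ replicate 2 (0.82, adjusted p = 0.0765) or 3 (0.84, adjusted p = 0.0607) or LN CD11b+ replicate 1 (0.80, adjusted p = 0.0799) or 3 (0.77, adjusted p = 0.0846) was left out, and in spleen it passed without splenic CD4+ replicate 2 (0.66, adjusted p = 0.0393). Monocytes against splenic DCs gave -0.48 (adjusted p = 0.0747), and -0.58, -0.55 and -0.68 (adjusted p = 0.0318, 0.0441 and 0.0351) without splenic CD4+ replicate 1, splenic CD4+ replicate 3 or monocyte replicate 1. The T cell marker sums were likewise above the splenic ones in all LN libraries, and their part in the level of Jup was not tested.

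Because Jup rose in LN and Ctnnb1 was not shown to, the ratio of their TPM was set out by library. Jup over Ctnnb1 was 0.934, 1.10 and 0.845 in LN CD103+ DCs and 0.680, 1.08 and 0.679 in LN CD11b+ DCs. It was 0.218, 0.330 and 0.277 in splenic CD8+ DCs, 0.215, 0.654 and 0.294 in splenic CD4+ DCs, and between 0.163 and 0.288 in monocytes. All LN ratios exceeded all splenic ratios, so per length the 2 homologues were near equal in LN CD103+ DCs and Ctnnb1 exceeded Jup in every splenic library. Ctnna1 over Ctnnb1 was 7.31 ± 0.665 in LN CD103+ and 6.87 ± 1.02 in LN CD11b+ DCs, against 3.29 ± 0.772, 3.05 ± 0.837 and 2.65 ± 0.362 in splenic CD8+ DCs, splenic CD4+ DCs and monocytes. These ratios have no test.

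**Figure D3:**
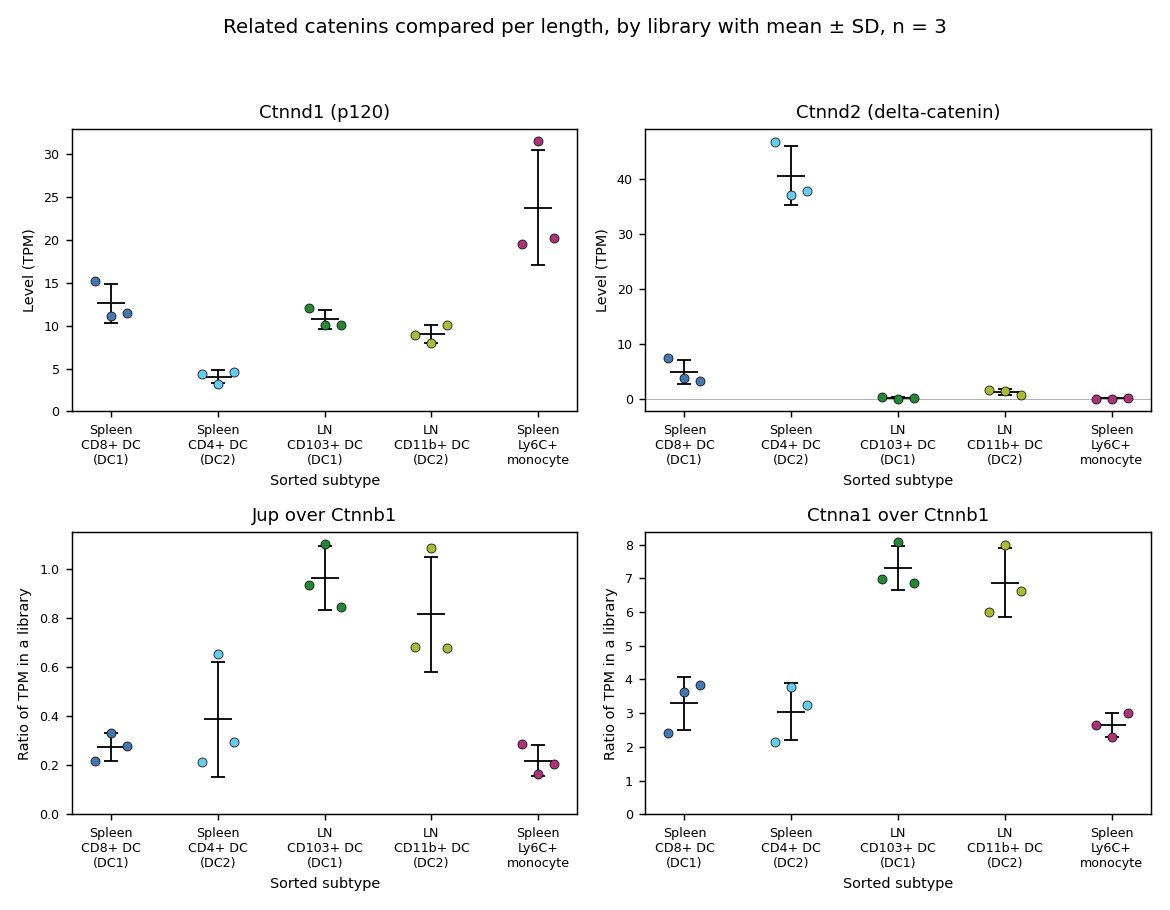
Upper panels, level in TPM (vertical axis) of Ctnnd1 and its relative Ctnnd2; lower panels, ratio of TPM of Jup and of Ctnna1 to Ctnnb1 within each library; points are the 15 libraries by sorted subtype (horizontal axis), bars mean and SD (n = 3). Ctnnd2 averaged 40.5 TPM in splenic CD4+ DCs, where Ctnnd1 was lowest at 4.04 TPM, and Jup over Ctnnb1 lay between 0.679 and 1.10 in LN libraries and between 0.163 and 0.654 in splenic ones.

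The promoters of this pair are shown for comparison, with matches in capitals on either strand. Jup, at chr11:100397791-100398040 on the minus strand, held 2 matches to GGGCGG and 2 to CCAAT, and Ctnnb1, at chr9:120933150-120933399 on the plus strand, held 3 and 2. A second start of Ctnnb1, with the window chr9:120933328-120933577, held 2 matches to GGGCGG and none to CCAAT, so the comparison depends on the start; the first is shown. None of the 3 windows held CTTTGA, and the GC contents of those shown were 62% and 74.8%.
Jup: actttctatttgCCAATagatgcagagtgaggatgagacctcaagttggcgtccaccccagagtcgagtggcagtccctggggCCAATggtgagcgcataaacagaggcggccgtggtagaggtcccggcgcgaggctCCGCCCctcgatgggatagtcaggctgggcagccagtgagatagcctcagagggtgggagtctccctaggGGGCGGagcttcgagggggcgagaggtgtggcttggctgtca
Ctnnb1: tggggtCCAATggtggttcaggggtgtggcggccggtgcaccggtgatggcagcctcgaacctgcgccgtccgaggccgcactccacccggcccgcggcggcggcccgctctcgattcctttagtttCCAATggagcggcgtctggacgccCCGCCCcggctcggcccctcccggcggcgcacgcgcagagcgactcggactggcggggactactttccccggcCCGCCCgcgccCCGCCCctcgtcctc

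Ctnnd1 (ENSMUSG00000034101, chromosome 2, 84600071 to 84650765), p120 catenin, which holds cadherins at the surface, was lowest in splenic CD4+ DCs at 12.4, 10.7 and 12.3 CPM. Splenic CD8+ DCs had 44.5, 34.9 and 34.9 CPM, LN CD103+ DCs 38.9, 33.3 and 31.8 CPM, LN CD11b+ DCs 26.9, 26.2 and 28.9 CPM, and monocytes 53.4, 91.7 and 57.6 CPM. Monocytes were above all DCs and splenic CD4+ DCs below all other libraries, LN CD11b+ DCs were next to lowest, and splenic CD8+ and LN CD103+ DCs overlapped. By edgeR's quasi-likelihood test, DC1 exceeded DC2 in spleen by a log2 fold change of 1.69 ± 0.23 (adjusted p = 2.21e-05) and in LN by 0.34 ± 0.22, short of the threshold (adjusted p = 0.354). LN exceeded spleen by 1.21 ± 0.23 in DC2 (adjusted p = 4.52e-04), whereas in DC1 the difference was -0.14 (adjusted p = 0.639). That dependence on lineage was itself past the threshold, at -1.34 ± 0.32 (adjusted p = 0.00874). Monocytes exceeded the mean of the splenic DCs by 1.67 ± 0.18 (adjusted p = 4.07e-07). All 5 neutrophil markers had counts over the same monocyte libraries, in spite of the Ly6G gate, with sums of 112.6, 98.2 and 178.5 CPM in replicates 1 to 3 against 0 to 0.801 CPM in splenic DCs. Red pulp macrophage markers summed to 169, 373.5 and 165.3 CPM in the same replicates, with the highest sum in the library highest in Ctnnd1, against 118.5 to 427.4 CPM in splenic DCs. The part of either in this and the other differences of monocytes was not tested.

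Ctnnd2, the delta-catenin first known from neurons and a close relative of Ctnnd1, was among the pathway genes that the rule of size named. It stood at 107.1, 100.8 and 81.8 CPM in splenic CD4+ DCs and at 17.3, 9.70 and 7.89 CPM in splenic CD8+ DCs. LN CD11b+ DCs had 3.87, 3.66 and 1.55 CPM, LN CD103+ DCs 0.976, 0 and 0.497 CPM, and monocytes a single count. No neighbours in that order of means overlapped among the 4 DC subtypes. In TPM Ctnnd2 was 10.2 ± 1.76 times Ctnnd1 in splenic CD4+ DCs and 0.368 ± 0.103 times in splenic CD8+ DCs, a ratio chosen after its values were seen. DC1 were below DC2 by -3.05 ± 0.39 in spleen (adjusted p = 1.15e-05), and LN were below spleen by -4.93 ± 0.44 in DC2 (adjusted p = 1.24e-07) and by -4.59 ± 0.56 in DC1 (adjusted p = 1.98e-06; -5.68 without LN CD103+ replicate 1 and -3.92 without replicate 2) with edgeR. Splenic CD4+ DCs were 2242-fold above monocytes, with a counting interval of 402 to 88611 (1238-fold without monocyte replicate 2 and at least 500.1-fold without replicate 3), and the fitted log2 fold change of monocytes against splenic DCs was -9.11 (adjusted p = 4.72e-09; -8.45 and -10.93 without those replicates).

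Beyond the 8 genes, 156 genes of the same pathways were taken in 9 lists, from other cadherins to genes of Wnt signalling, of which 90 were tested. Comparing LN with spleen, 39 were higher and 15 lower in DC1 (of all genes 23.8% higher and 21.8% lower), and 24 were higher and 10 lower in DC2 (19.3% and 13.8%). Some tested genes, such as Lef1, Notum and Dsg2, passed the filter on low counts only with LN libraries, and Cdhr3 only with splenic CD4+ libraries. The counts and medians between organs, and those between DC1 and DC2 in spleen, therefore depend in part on the filter. The median log2 fold change was 0.71 in DC1, against 0.00 for all genes tested, and 0.40 in DC2, against 0.05. In spleen 8 were higher and 22 lower in DC1 than in DC2 (13.1% and 14.4% of all genes), with a median of -0.17, or -0.32 with genes at 0 in a group at their bound, against 0.00; the number past the threshold was 30, and 19 without splenic CD8+ replicate 3. In LN 10 were higher and 11 lower (5.22% and 7.73%), median 0.09 against -0.01. In monocytes against splenic DCs 24 were higher and 23 lower (24.3% and 24%), median -0.11 (-0.07 at bounds) against -0.02. For 17 the organ difference depended on lineage (11.2% of all genes).

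**Figure D4:**
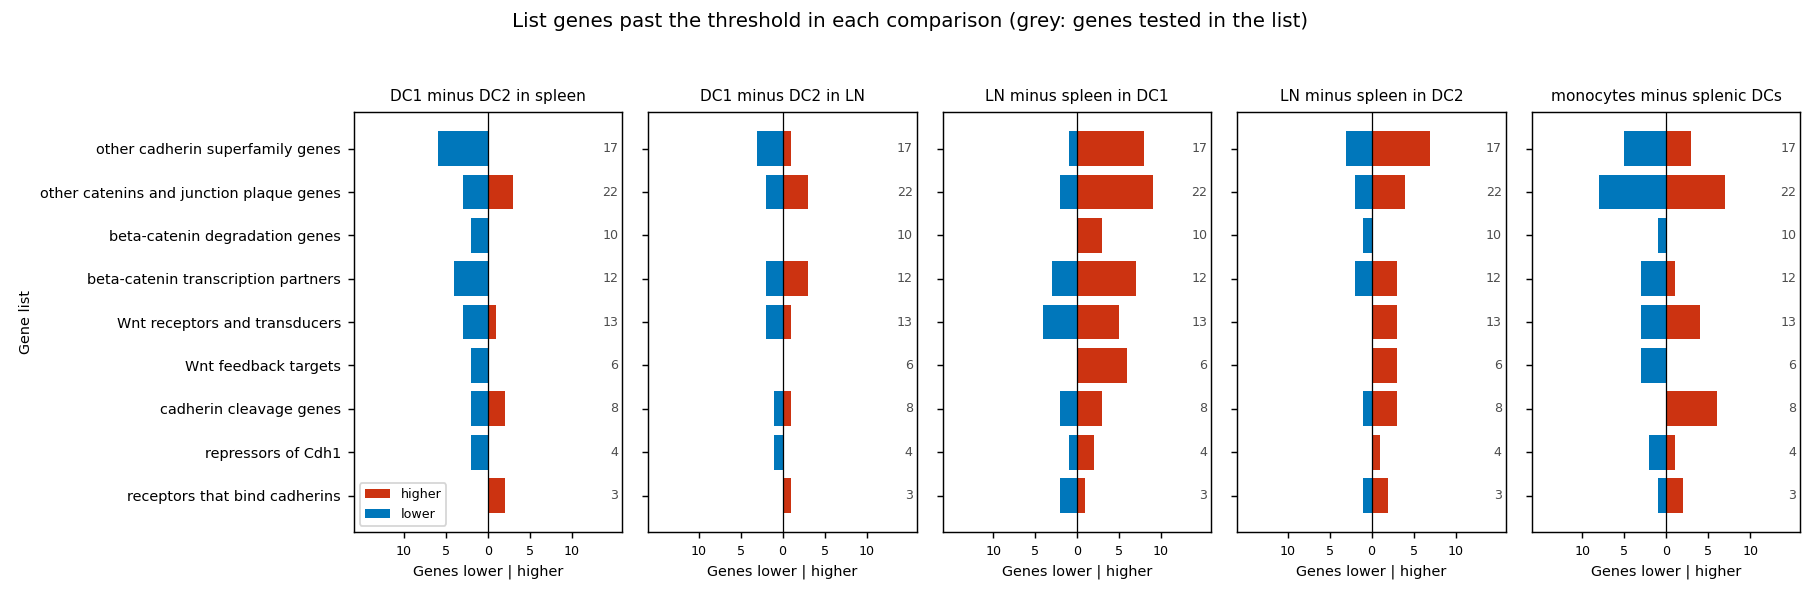
Number of list genes past the threshold (horizontal axis; lower to the left in blue, higher to the right in red) in each of 9 gene lists (vertical axis) for 5 comparisons, with the number tested in grey. Between organs in DC1, 8 of 17 other cadherin genes and all 6 Wnt feedback targets tested were higher in LN (23.8% of all genes), and in monocytes 6 of 8 cadherin cleavage genes were higher than in splenic DCs (24.3% of all genes). Dsg2, Dsc3, Axin2, Lef1 and Notum passed the filter on low counts only with LN libraries, so the counts between organs carry no test.

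Of 58 other cadherin superfamily genes 17 were tested, and in LN against spleen 8 were higher and 1 lower in DC1 (47.1% and 5.88% of the list, where 23.8% and 21.8% of all genes were called; median 1.35), and 7 higher and 3 lower in DC2 (41.2% and 17.6%, against 19.3% and 13.8%; median 2.07). Dsg2, Dsc3 and Pcdh18 had no count in splenic DCs and passed the filter on low counts only with LN libraries. These shares and medians thus rest in part on genes admitted through the higher group, and carry no test. Of the cadherin-related genes Cdhr1, Cdhr3 and Cdhr4, which passed the filter, Cdhr1 and Cdhr3 had lower levels in DC1 than in DC2 in spleen, and Cdhr1 also in LN. Cdhr4, of whose exon bases 57.2% overlap Uba7 and other genes, did not pass the threshold between lineages (adjusted p = 0.891 in spleen and 0.682 in LN). Cdhr3 averaged 14.6 ± 4.66 CPM in splenic CD4+ DCs and had 1 count in splenic CD8+ DCs, a ratio of 355.8 (counting interval 63.4 to 14103). The ratio was 229.1 without splenic CD8+ replicate 3 and at least 78.1-fold without replicate 1. Its fitted log2 fold change for DC1 against DC2 was -7.99 (-9.73 without splenic CD8+ replicate 1). In DC2 the level of Cdhr3 was lower in LN, at 0.360 ± 0.446 CPM. The log2 fold change there was -5.11 ± 0.75 (-7.09 without LN CD11b+ replicate 1). Cdhr3 passed the filter on low counts only with splenic CD4+ libraries, its highest group, so its differences carry no test here. Cdhr1 averaged 21.8 ± 5.45 CPM in LN CD11b+ and 2.35 ± 0.360 CPM in LN CD103+ DCs (-3.20 ± 0.66, adjusted p = 0.00427), averaged 3.57 ± 2.96 CPM in splenic CD4+ DCs and was at 0 in all splenic CD8+ DC and monocyte libraries. In spleen its pooled level in DC2 was at least 26.6-fold higher than in DC1 (42.7 and 17.2 without splenic CD4+ replicates 1 and 2, 17.5 and 17.15 without splenic CD8+ replicates 1 and 3; adjusted p = 7.20e-04). Pcdh1 was lower in LN than in spleen in both lineages, at 1.43 ± 0.131 against 10.8 ± 2.16 CPM in DC2 (-2.91 ± 0.58, adjusted p = 8.88e-04) and 0.990 ± 1.07 against 6.46 ± 2.69 CPM in DC1 (-2.61 ± 0.58, adjusted p = 0.00152; -4.03 without LN CD103+ replicate 2). Celsr3, a planar polarity cadherin, averaged 12.7 ± 4.28 CPM in monocytes against 2 counts in splenic CD8+ DCs and 1 in splenic CD4+ DCs (log2 fold change 7.27, adjusted p = 9.38e-08; 8.28 without splenic CD4+ replicate 3). Endothelial cadherin Cdh5 did not pass the filter on low counts and averaged at most 0.806 CPM.

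In the list of other catenins and junction plaque genes, 22 of 28 were tested. Between organs 9 were higher and 2 lower in LN in DC1 (40.9% and 9.09% of the list, against 23.8% and 21.8% of all genes), and 4 higher and 2 lower in DC2 (18.2% and 9.09%, against 19.3% and 13.8%). In monocytes 7 were higher and 8 lower (31.8% and 36.4%, against 24.3% and 24%). Actn1, alpha-actinin, which bundles actin at junctions, averaged 287.7 ± 23.2 CPM in CD103+ DCs of the LN and 201.1 ± 14.6 CPM in its CD11b+ DCs, against 53.5 ± 9.41 and 45.3 ± 3.92 CPM in splenic CD8+ and CD4+ DCs. The organ difference was 2.43 ± 0.30 in DC1 (adjusted p = 2.27e-06) and 2.15 ± 0.30 in DC2 (adjusted p = 1.67e-05). Monocytes had 11 counts of Actn1, all in replicate 2, and were lower than splenic DCs by a log2 fold change of -6.68 (adjusted p = 4.72e-10; -11.45 without that replicate). Vinculin (Vcl), which binds alpha-catenin under tension and shares 39.9% of its exon bases with Ap3m1, so that reads there were counted for both, was highest in monocytes, at 85.5 ± 8.47 CPM (1.33 ± 0.19 above splenic DCs, adjusted p = 1.58e-05). Nectin2, an immunoglobulin-like adhesion molecule of the same junctions, averaged 11.3 ± 3.16 CPM in LN CD11b+ DCs and at most 1.63 CPM elsewhere, with -3.59 ± 0.74 for DC1 against DC2 in LN (adjusted p = 0.00273; -4.31 without LN CD103+ replicate 1) and 2.83 ± 0.71 for LN against spleen in DC2 (adjusted p = 0.00446; 2.21 without splenic CD4+ replicate 1 and 3.43 without replicate 3).

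In the nuclear arm of beta-catenin, all 6 Wnt feedback targets tested, of 11 listed, were higher in LN than in spleen in DC1 (23.8% of all genes), with a median of 3.79, and 3 of the 6 in DC2 (19.3% of all genes), with a median of 1.53. Axin2, Lef1 and Notum averaged below 1 CPM in every splenic subtype and passed the filter on low counts only with LN libraries. Their place among the tested genes thus rested on the group where they were high, and these counts and medians carry no test. Notum also shares 38.1% of its exon bases with other genes. Of 12 tested transcription partners of beta-catenin 7 were higher and 3 lower in LN in DC1 (58.3% and 25% of the list, against 23.8% and 21.8%; median 0.98), and in DC2 3 were higher and 2 lower (25% and 16.7%, against 19.3% and 13.8%), with a median of -0.22 against 0.05 for all genes. The interaction of lineage and organ was past the threshold for 4 of these 12 (11.2% of all genes), with a positive value for 3, Tcf7, Tcf7l2 and Bcl9, and a negative one for Tle1; Bcl9 and Tle1 were chosen after their values were seen. The call for Tcf7 (2.12, adjusted p = 0.0312) was lost, at 1.72 to 2.09, without splenic CD8+ replicate 2 or 3, splenic CD4+ replicate 3, LN CD103+ replicate 1 or 3, or LN CD11b+ replicate 1 or 2, and its value was 3.58 without splenic CD8+ replicate 1. The list as a whole was not tested between lineages, and its count was not rerun without 1 library. These lists share genes: Tcf7 and Lef1, factors that bind beta-catenin, stand in both. Tcf7 stood at 77.1, 62.1 and 74.2 CPM in CD103+ DCs of the LN, 118.4, 111.9 and 136.2 CPM in its CD11b+ DCs, 26.4, 37.6 and 43.7 CPM in splenic CD4+ DCs, 10.9, 1.48 and 1.95 CPM in splenic CD8+ DCs, and a single count in monocytes. Every LN library was above every splenic one, and in each organ all DC2 libraries were above all DC1 libraries, a difference past the threshold in spleen (-2.90 ± 0.47, adjusted p = 1.51e-04; -4.36 without splenic CD8+ replicate 1) and short of it in LN (-0.78 ± 0.41, adjusted p = 0.245). With edgeR the organ difference was 3.88 ± 0.48 in DC1 (adjusted p = 2.50e-06; 5.35 without splenic CD8+ replicate 1, the highest of its group) and 1.77 ± 0.42 in DC2 (adjusted p = 0.00311). The fit gave monocytes below splenic DCs by -7.75 (adjusted p = 8.32e-07; between -9.62 without monocyte replicate 1 and -7.01 without splenic CD8+ replicate 1, with -7.08 without monocyte replicate 2).

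Lef1 stood at 11.7, 14.6 and 13.2 CPM in CD103+ DCs of the LN and 6.34, 9.81 and 13.7 CPM in its CD11b+ DCs, with 3 counts over splenic CD8+ DCs, 5 over splenic CD4+ DCs and none in monocytes. LN CD103+ DCs were 108.6-fold above splenic CD8+ DCs (counting interval 36.8 to 529.6). The ratio was 214.6 without splenic CD8+ replicate 1 and 69.9 without replicate 3. On the log2 scale the fitted organ difference of Lef1 was 6.56 ± 0.78 in DC1 and 5.23 ± 0.74 in DC2. It was 7.37 in DC1 without splenic CD8+ replicate 1 and 9.17 in DC2 without splenic CD4+ replicate 1. Lef1 passed the filter on low counts only with LN libraries, so these differences carry no test here. Rnf43, a feedback inhibitor of Wnt receptors, averaged 1.65 ± 0.963 CPM in splenic CD8+ DCs against 23.7 ± 5.96 CPM in splenic CD4+ DCs (-3.82 ± 0.47, adjusted p = 7.04e-06) and 19.4 ± 5.34 CPM in LN CD103+ DCs (3.54 ± 0.46, adjusted p = 5.17e-06). Axin2, a target used to read Wnt activity, stayed low, at 1.28 ± 0.501 CPM in LN CD103+ and 1.86 ± 0.415 CPM in LN CD11b+ DCs, against 2 and 14 counts in splenic CD8+ and CD4+ DCs. The fitted organ difference of Axin2 was 3.71 ± 1.06 in DC1 (6.21 without splenic CD8+ replicate 1) and 1.28 in DC2. Axin2 too passed the filter only with LN libraries, so these values carry no test here. Tcf7l2 differed less: it was higher in LN in DC1 (0.97 ± 0.25, adjusted p = 0.00359) and in DC1 than DC2 in LN (1.34 ± 0.25, adjusted p = 0.00125).

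**Figure D5:**
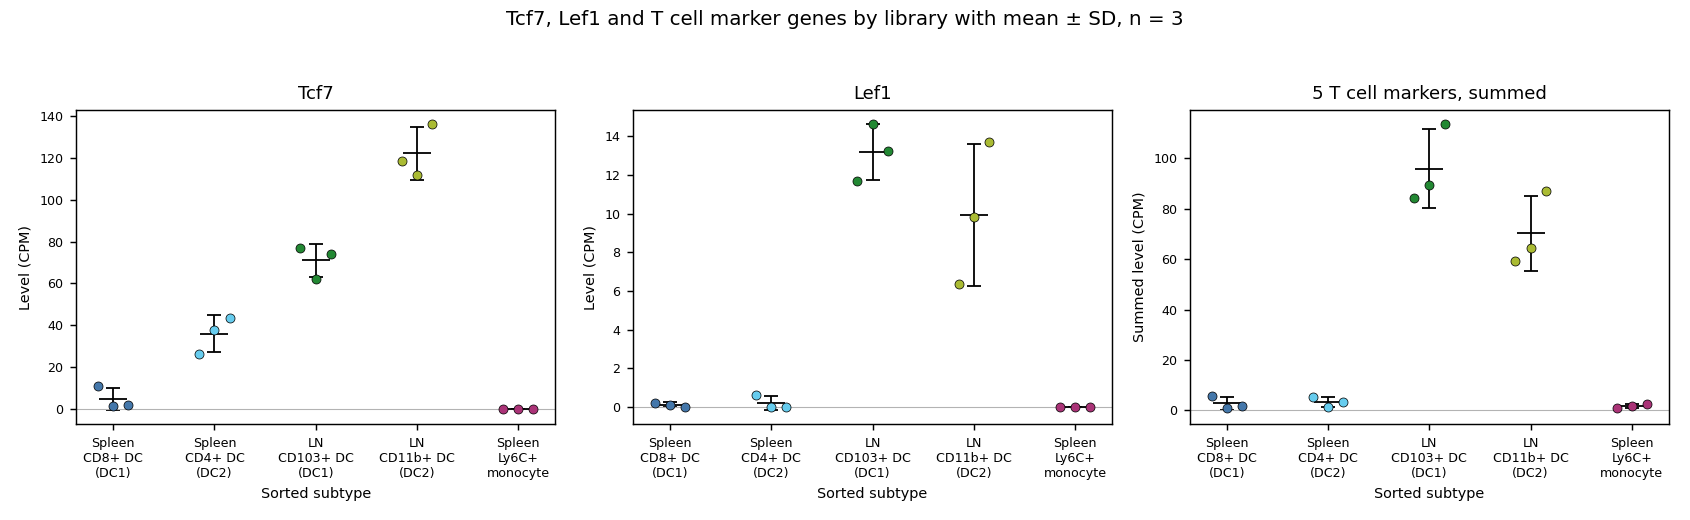
Level in CPM (vertical axis) of Tcf7, of Lef1 and of 5 T cell marker genes summed, in the 15 libraries (points) by sorted subtype (horizontal axis), with mean and SD (bars, n = 3). The T cell markers averaged 95.8 CPM in LN CD103+ and 70.3 CPM in LN CD11b+ DCs, Lef1 13.2 and 9.95 CPM, and Tcf7 71.1 and 122.2 CPM.

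Tcf7 and Lef1 are also abundant in T cells. The T cell markers moved with organ in the same direction, as the plot of Tcf7, Lef1 and T cell markers shows, with Lck at 49.2 and 39.3 CPM and Cd3g at 17.01 to 23.01 and 9.78 to 14.6 CPM in LN CD103+ and CD11b+ DCs. Their order between the LN subtypes was that of Lef1 and the reverse of that of Tcf7. Splenic CD4+ DCs held 26.4 to 43.7 CPM of Tcf7 where the T cell markers summed to at most 5.28 CPM. The lineage gate with CD3 would remove T cells, and their part in the Tcf7 and Lef1 levels of LN libraries was not tested.

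Among Wnt receptors and transducers, 13 of 19 were tested. Fzd1, a Wnt receptor, was highest in splenic CD8+ DCs, at 99.2 ± 37.0 CPM against 6 counts over splenic CD4+ DCs, a 328.4-fold ratio (counting interval 150.7 to 895.7). The ratio was 198.6 without splenic CD4+ replicate 1 and 690.8 without replicate 2. With edgeR the log2 fold change was 8.25 (adjusted p = 5.45e-08), or 7.57 and 9.25 without those replicates. In LN, Fzd1 averaged 13.1 ± 5.17 CPM in CD103+ and 1.80 ± 1.35 CPM in CD11b+ DCs. The edgeR difference of LN DC1 and DC2 was 2.82. Over the fits without 1 library its adjusted p ran from 8.82e-04 to 0.00572. Wls, which carries Wnt ligands to the cell surface, averaged 54.4 ± 15.6 CPM in LN CD11b+ and 4.85 ± 2.46 CPM in LN CD103+ DCs (-3.48 ± 0.41, adjusted p = 1.24e-05). In the list of beta-catenin degradation genes 10 of 11 were tested, and 3 were higher in LN in DC1 (30% of the list, against 23.8% of all genes) and 2 lower in DC1 than in DC2 in spleen (20%, against 14.4%). Between organs in DC2, 0 were higher and 1 lower in LN (19.3% and 13.8% of all genes), with a median of -0.14 against 0.05. Axin2 stands both in this list and among the Wnt feedback targets.

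Cleavage of cadherins by Adam10 and gamma-secretase releases beta-catenin, and all 8 genes of that list were tested. In monocytes 6 of the 8 were higher than in splenic DCs (75% of the list, against 24.3% of all genes), with a median of 0.99 against -0.02 for all genes. Adam10 was lowest in splenic CD8+ DCs, at 73.5 ± 2.17 CPM, and higher in LN CD103+ DCs, at 200.7 ± 37.2 CPM (1.45 ± 0.21, adjusted p = 1.74e-05), in LN CD11b+ than in splenic CD4+ DCs (269.5 ± 46.4 against 153.4 ± 39.0 CPM; 0.81 ± 0.21, adjusted p = 0.00512) and in monocytes than in splenic DCs (0.94 ± 0.17, adjusted p = 1.96e-04).

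Of the 8 listed repressors of Cdh1, 4 were tested, and no link between them and the level of Cdh1 was tested. Snai1 averaged at most 1.405 CPM in a subtype, and Snai2, Snai3, Twist1 and Twist2 did not pass the filter. Zeb2 averaged 611.9 ± 111.9 CPM in monocytes, 303.1 ± 30.7 CPM in CD11b+ DCs of the LN and 239.9 ± 68.4 CPM in splenic CD4+ DCs, against 38.4 ± 23.6 CPM in CD8+ DCs of the spleen and 17 ± 1.13 CPM in LN CD103+ DCs. DC1 were below DC2 in LN by -4.15 ± 0.37 (adjusted p = 4.00e-07) and in spleen by -2.64 ± 0.34 (adjusted p = 1.23e-05). Zeb1 averaged 153.9 ± 25.9 and 138.1 ± 35.6 CPM in LN CD103+ and CD11b+ DCs, and 3.46 ± 0.754 CPM in monocytes, lower than in splenic DCs by a log2 fold change of -4.17 ± 0.33 (adjusted p = 5.29e-09). LN exceeded spleen in DC1 by 1.80 ± 0.28 (adjusted p = 4.30e-05).

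E-cadherin is also bound by other receptors. Itgae, the alpha chain of the CD103 integrin that binds it, was itself used to sort LN CD103+ DCs, so its LN values only check the sort: 39.6, 20.8 and 21.02 CPM in CD103+ DCs of the LN and 1.504, 5.71 and 5.52 CPM in its CD11b+ DCs. In spleen, where it was not a sort marker, it had 71.8, 113.1 and 134.8 CPM in CD8+ DCs and 8 counts over the CD4+ DCs, all in replicate 2, a ratio of 262.1 (counting interval 132.8 to 607.7; 158.5 without splenic CD4+ replicate 1 and at least 490.1-fold without replicate 2), with a fitted log2 fold change of 7.95 (adjusted p = 1.09e-07; 7.27 and 12.62 without those replicates). Its partner Itgb7 fell from spleen to LN, from 340.3 ± 36.9 to 150.7 ± 40.6 CPM in DC1 (-1.17 ± 0.23, adjusted p = 4.30e-04) and from 295.7 ± 77.6 to 103.7 ± 22.1 CPM in DC2 (-1.51 ± 0.24, adjusted p = 6.53e-05). Monocytes had 679.1 ± 71.2 CPM of Itgb7, above splenic DCs (1.10 ± 0.19, adjusted p = 1.18e-04). Klrg1, an inhibitory receptor for E-cadherin, did not pass the filter and had between 0 and 7 counts in a subtype.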

How the data were processed

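RNA of 15 libraries, 3 for each of 5 sorted subtypes, was analysed from the deposited counts per gene. The authors made these with STAR 2.4.0j and featureCounts of Subread 1.5.2 on mm10 and Ensembl 75. Ion Torrent reads of at least 30 bases were counted unstranded. A uniquely mapped read was counted for each gene that covered a set minimum fraction of it. The TPM were deposited by the authors, computed from counts and exon length, and recomputing them gave values within 9.6e-10. Counts by run summed to the deposited counts in all 15 libraries. Symbols were given to 37607 of 38924 gene identifiers (96.6%). Library sizes were scaled by TMM (factors 0.883 to 1.1).

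Differences were tested with edgeR 4.0.16 in R 4.3.3, by its quasi-likelihood test on the 14456 genes that exceeded 1 CPM in 3 libraries or more, with a mean per subtype, a common dispersion of 0.0681 and 10 residual degrees of freedom, and Benjamini-Hochberg adjustment over all tested genes at 0.05. The comparisons were DC1 minus DC2 in each organ, LN minus spleen in each lineage, the interaction of the last 2, and monocytes minus splenic DCs (mean of both subtypes). The smallest 2-sided p that exact permutation of 3 against 3 libraries can give is 0.1, so every p rests on the model of the spread. The code was tested on simulated counts. Alternatives were RLE scaling, DESeq2 1.42.0, no filter (23169 genes), limma 3.58.1 with trend on log2(TPM + 1), a replicate block, and leaving out each library. A group at 0 was given a floor of 3 counts, and ratios on few counts divide counts over effective library sizes pooled over each subtype, with exact 95% intervals conditional on the sum of both counts. Likeness used log2 CPM with a prior count of 2.

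The genes and lists were chosen with earlier results of these data known. Pathway genes were named by rule: in each comparison the 4 with the largest absolute log2 fold change past the threshold and an average in the higher group of 10 CPM or more, and 11 genes set by name (Itgae, Itgb7, Klrg1, Adam10, Axin2, Tcf7, Lef1, Tcf7l2, Zeb1, Zeb2 and Vcl). Cdh5, Actn1 between organs and the further comparisons of named genes were chosen after their values were seen.

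The methods of the study gave subjects a random intercept and repeated the process for mouse samples, but different cohorts supplied LNs and spleens. Whether libraries with the same replicate number deviate together was therefore read from the data. Of the 15 libraries, 13 correlated best with their own replicate number. The main fit had no replicate block, so its p-values leave any such pairing out, and the block was an alternative. Correlations of deviations from subtype means were 0.162, 0.339 and 0.375 between splenic CD8+ and CD4+ DCs, 0.222, 0.179 and 0.259 between LN CD103+ and CD11b+ DCs, 0.197, 0.243 and 0.266 between splenic CD4+ and LN CD11b+ DCs, and 0.117, 0.124 and 0.146 between splenic CD4+ and LN CD103+ DCs. They were 0.037, 0.086 and 0.069 between splenic CD8+ and LN CD103+ DCs, 0.016, 0.182 and 0.118 between splenic CD8+ and LN CD11b+ DCs, and from -0.035 to 0.04 between monocytes and each DC subtype. All 3 values were over 0.1 in the first 4 of these pairs of subtypes, 2 within an organ and 2 between organs, and none was for monocytes.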

Additional observations from a re-analysis of the deposited data

Results flagged for a closer look

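The interaction test of edgeR, at an adjusted p below 0.05, called 11.2% of all genes in either direction. By it the organ effect in DC1 differed from that in DC2 for Ctnnd1 (difference of log2 fold changes -1.34, adjusted p = 0.00874). It also differed for 7 named pathway genes. These were Fzd1 (-5.43, adjusted p = 6.62e-04), Wls (-2.20, adjusted p = 0.0129), Zeb2 (-1.51, adjusted p = 0.0418), Tcf7 (2.12, adjusted p = 0.0312), Rnf43 (3.05, adjusted p = 0.00255), Tcf7l2 (1.36, adjusted p = 0.0168) and Itgae (-5.22, adjusted p = 6.62e-04), of which Itgae was used to sort LN CD103+ DCs, so that its value holds the sort. Fzd1, Wls, Zeb2, Tcf7, Rnf43 and Itgae were among the list genes with the largest fold changes in a comparison that forms the interaction. The number called among named genes is thus a description of picked genes. Without splenic CD4+ replicate 1 or 2 the value of Fzd1 was -4.75 and -6.43 and that of Itgae -4.53 and -9.88. Without LN CD11b+ replicate 1 that of Fzd1 was -4.70 (adjusted p = 0.0136), and without splenic CD8+ replicate 1 that of Tcf7 was 3.58. The call for Zeb2 was lost in 12 of the 15 fits that left out a library, with values from -1.58 to -1.31 in 11 of them and -0.93 without splenic CD8+ replicate 1 (adjusted p from 0.0537 to 0.144), and with limma (-1.13, adjusted p = 0.111). The call for Tcf7 was lost in 7 of the 15, with values from 1.72 to 2.09 (adjusted p from 0.0507 to 0.0756), and with DESeq2 (2.19, adjusted p = 0.0711).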

How the results depend on the processing

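Over 5 alternatives other than leaving out a library, 146 values of the tested genes kept their direction and side of the threshold, 2 passed it newly, 1 no longer did and 1 turned; over the fits without 1 library these numbers were 424, 6, 6 and 14. The replicate block gave 0.61 (adjusted p = 0.0317) for Ctnnb1 between DC1 and DC2 in LN, past the threshold, and changed no other call of the 5 genes, though Cdh1 in spleen turned to 0.19 (adjusted p = 0.909). DESeq2 gave Ctnnb1 0.61 in LN (adjusted p = 0.0225), and limma 0.64 in spleen (adjusted p = 0.0503). Without 1 library, Cdh1 ranged from -0.89 to 1.04 between DC1 and DC2 in spleen, from -0.70 to 0.47 between organs in DC1, from -0.33 to 1.49 in DC2 and from -1.71 to 0.22 for the interaction. Ctnnb1 ranged from -0.25 to 0.06 for the interaction and from -0.08 to 0.15 for monocytes. The number of list genes past the threshold in spleen ranged from 19 to 31 (30 with all libraries). The cause of these changes was not tested.  Cdh1 had 0 to 22 counts in a library.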

Other observations

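Each monocyte library was sequenced in 2 runs. Ctnnb1 stood at 65.3, 89.2 and 73.1 CPM (unscaled, by run) in the first run of replicates 1, 2 and 3, and at 110.7, 122.2 and 84.3 in the second, ratios of 1.69, 1.37 and 1.15. Of genes with at least 100 counts, 52 of 6709 (0.775%), 255 of 8446 (3.02%) and 1254 of 7744 (16.2%) had a ratio at least as large. For Jup the same ratios were 1.22, 0.595 and 0.982. In replicate 2 Jup thus moved between runs in the direction opposite to Ctnnb1, so Jup over Ctnnb1 differed between the runs of that library.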
